A study of Mus musculus with 29 samples.

Results

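Endothelial marker genes are described here across mouse intestinal tissue, crypt epithelium and organoids. The members are 10 genes taken by symbol, Vwf, Esam, Egfl7, Pecam1, Cdh5, Kdr, Tek, Tie1, Ecscr and Plvap, out of 49585 gene identifiers in the tissue counts. All 10 were found once each, and all 10 passed the low-count filter in tissue. RNA was read from 29 C57BL/6 libraries in 3 sets, each normalized on its own. The tissue set holds 4 tumors of H2B/p53dIEC mice, 4 pieces of adjacent unaffected tissue from those same 4 mice (numbers 1319, 1322, 1323 and 1349), and 4 control tissues of H2B/p53flox/flox mice, which carry both floxed alleles. The source name of those controls also reads as adjacent tissue, and they were taken as controls by genotype. The crypt set holds 4 H2BdIEC and 4 H2B flox/flox libraries of isolated crypts at 52 weeks of age. The organoid set holds 3 H2B/p53dIEC, 3 H2BdIEC and 3 control cultures, the last titled as wild type but labelled with the H2B/p53flox/flox genotype. The labels do not spell out the alleles or name the Cre driver, and they give no age for the tissue mice. Rnaseh2b, which encodes a subunit of the enzyme that starts ribonucleotide excision repair, averaged 4.39 CPM in tumors, 4.12 CPM in adjacent tissue and 16.1 CPM in control tissue. Trp53 averaged 19.8 CPM in tumors, 21.3 CPM in adjacent tissue and 44.8 CPM in control tissue.

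Endothelial cells line blood and lymph vessels. They are held together by junction proteins, are kept alive and made to sprout by growth factors that act on receptor tyrosine kinases, and release clotting and matrix factors into the blood and the vessel wall. In the small intestine, capillaries with windowed walls run through the villus core beneath the epithelium and carry absorbed nutrients away, and growing tumors draw on new vessels. Whole tissue contains such vessels, while isolated crypts and epithelial organoids are preparations of epithelium.

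Total counts per tissue library ran between 21884287 and 41504298, apart from control 1320, which had 401365. In control 1320 each member rested on 1 to 12 reads, so its values are coarse and are given apart where they matter. Levels below are CPM, reads of a gene per fixed number of reads in its library, adjusted by the trimmed mean of M values (TMM), with the SD over libraries after ±. A gene was called changed at an adjusted p under 0.05 in edgeR's quasi-likelihood test, with Benjamini-Hochberg adjustment over 17666 genes in tissue. Log2 fold changes carry their SE after ±. In bulk RNA, a change in the number of endothelial cells and a change in the RNA per endothelial cell cannot be told apart. Nor can RNA of other cells that express a marker. Egfl7 (7.57 to 10.7 CPM) and Esam (3.10 to 9.73 CPM) were also read in the organoids, which had 0 reads of Cdh5. The part of epithelial RNA in the tissue differences of Egfl7 and Esam was not tested.

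Summed over the 10 genes, endothelial marker RNA came to 479, 330, 601 and 428 CPM in tumors of mice 1319, 1322, 1323 and 1349. It came to 347, 249, 255 and 354 CPM in adjacent tissue of the same mice, and to 145, 102, 115 and 147 CPM in controls 1315, 1316, 1320 and 1321. All 4 adjacent libraries lay above all 4 controls, while tumor and adjacent libraries overlapped. Ecscr alone gave 89.9, 93.4, 68.4 and 94.5 CPM of the tumor sums, in the same order of mice. It gave 8.55, 10.1, 5.61 and 9.48 CPM of the adjacent sums, so the sums are not an even reading of all 10 genes. Tumor 1323 was the highest tumor for 7 of the 10 genes, and tumor 1322 was the lowest tumor in the sum.

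**Figure D1:**
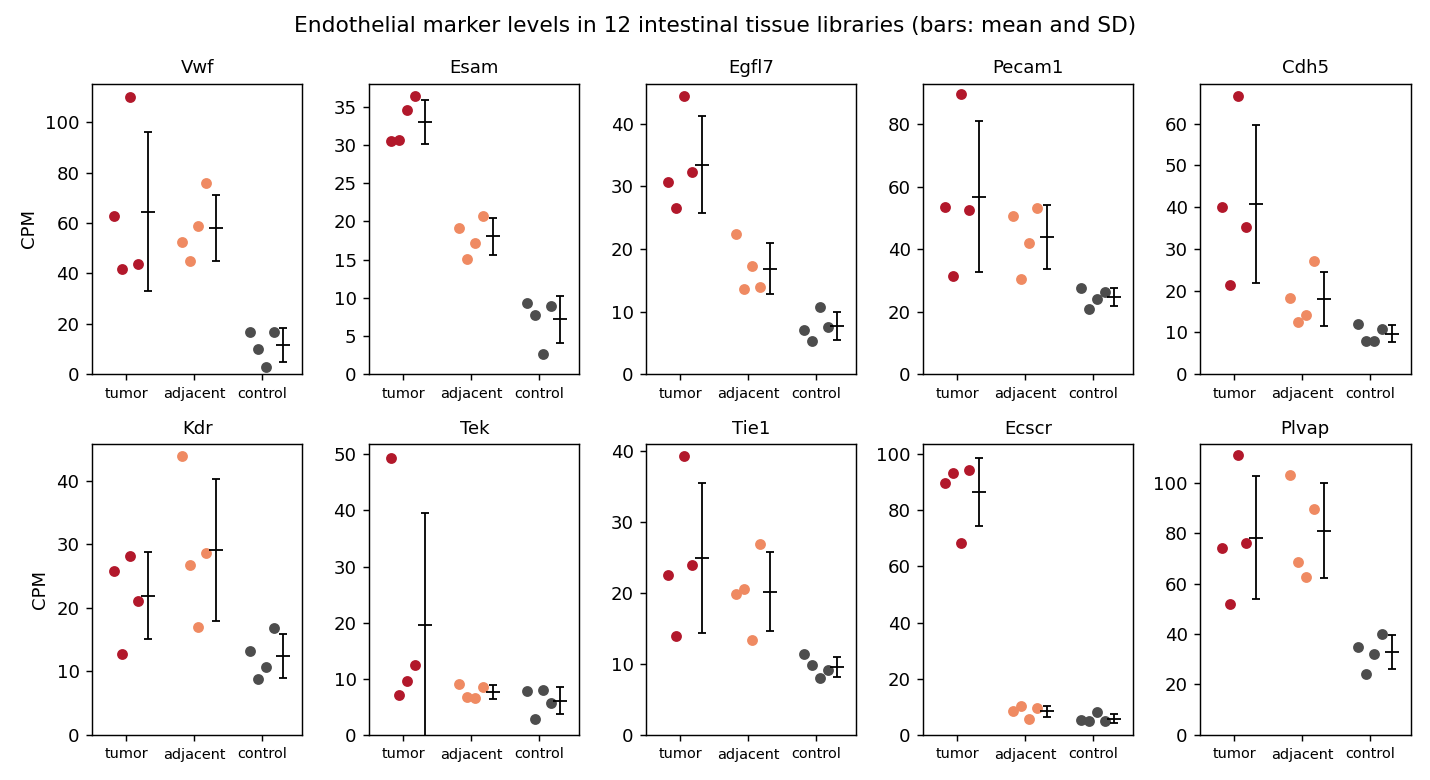
Level of each endothelial marker (CPM, linear axis from 0) in 4 tumor, 4 adjacent and 4 control libraries; points are libraries in order of mouse number, and bars are the mean and SD, the Tek bar in tumors running below 0. Ecscr is apart in tumors, between 68.4 and 94.5 CPM, and Tek is high in 1 tumor, at 49.3 CPM.

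Levels between genes can be compared only per length of exon. On a scale of CPM per kilobase, Ecscr averaged 49.4 ± 6.99 and Plvap 39.4 ± 12.3 in tumors, and these were the highest of the 10. In adjacent tissue Plvap was the highest, at 40.7 ± 9.49 CPM per kilobase, and Ecscr averaged 4.82 ± 1.14. In control tissue Plvap again led, at 16.5 ± 3.36 CPM per kilobase. Vwf, a long transcript, ranked 3 by CPM in tumors and 9 per kilobase. At the low end in tumors, Kdr averaged 2.43 ± 0.755 CPM per kilobase, Vwf 4.02 ± 1.98 and Tek 4.15 ± 4.23, differences smaller than the SDs of Vwf and Tek.

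The first comparison asks what differs between the tumors and adjacent tissue of the same mice. The main fit has no term for the mouse, so its p-values are those of an unpaired contrast of groups. Of the 10 markers, 4 rose (Ecscr, Cdh5, Egfl7 and Esam) and 0 fell. In this comparison 46.9% of all genes tested were called and 23.0% were called higher in tumors, and the count of 4 in 10 is read against that share. The median log2 fold change over the 10 was 0.62, against 0.00 over all genes. Ecscr, Egfl7 and Esam were the 3 members with every tumor above every adjacent library, which held for 19.6% of all genes.

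Ecscr is a surface protein of endothelial cells tied to their movement and to signalling from growth factor receptors, encoded on chromosome 18. It had 89.9, 93.4, 68.4 and 94.5 CPM in tumors 1319, 1322, 1323 and 1349, against 8.55, 10.1, 5.61 and 9.48 CPM in the matching adjacent tissue. Every tumor stood far above every adjacent piece, and the means were 10.2-fold apart (log2 3.35 ± 0.21, adjusted p = 2.46e-06 by edgeR's quasi-likelihood test). Control tissue had 5.32, 4.94, 8.03 and 4.91 CPM, the 8.03 CPM being control 1320. Within the 4 mice the tumor excess was of like size, between 3.19 and 3.59 on the log2 scale.

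The other genes around Ecscr were also read. Of the neighbours within 100 kb that were tested, Tmem173, which encodes the DNA-sensing adaptor STING, had 75.5 CPM in tumors and 13.4 CPM in adjacent tissue (log2 2.49 ± 0.33, adjusted p = 0.000123 by edgeR). The gene 1700066B19Rik, which overlaps Ecscr on the opposite strand, rose by 2.24 ± 0.56, Spata24 by 2.12 ± 0.41 and Prob1 by 1.30 ± 0.34 on the log2 scale. Dnajc18, Paip2 and Ube2d2a rose by 1.03 ± 0.25, 0.63 ± 0.15 and 0.59 ± 0.16. Slc23a1 (log2 -2.44 ± 1.08) and Mzb1 (log2 -1.21 ± 0.81) lay below 0 and were not called. The libraries are strand-specific per the labels, but the strand setting of the counting is not given in the sources used here, and whether reads of neighbours entered the Ecscr count was not tested.

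The junction proteins differed among themselves. Cdh5 (VE-cadherin, the adhesive core of endothelial junctions) had 40.0, 21.2, 66.6 and 35.1 CPM in tumors 1319, 1322, 1323 and 1349, against 18.3, 12.5, 14.3 and 27.1 CPM in the matching adjacent tissue. Each tumor was above its own adjacent tissue, but tumor 1322 lay below adjacent 1349 (log2 1.18 ± 0.33, adjusted p = 0.0111 by edgeR). Esam, an adhesion molecule of endothelial tight junctions that platelets also carry, had 30.5, 30.7, 34.6 and 36.3 CPM in tumors and 19.1, 15.1, 17.2 and 20.7 CPM in adjacent tissue. These groups did not overlap, and both were tight (log2 0.87 ± 0.20, adjusted p = 0.00325 by edgeR). Of all genes tested, 23.0% were called higher in tumors than in adjacent tissue and 46.9% in either direction. Of 6 tested platelet and megakaryocyte genes, 3 were called higher in tumors, among them Pf4 (log2 2.81 ± 0.46) and Ppbp (log2 3.08 ± 0.61), and 1 lower, Gp1bb (log2 -2.16 ± 0.42). Their summed level was 28.0 to 81.8 CPM in tumors and 82.0 to 127 CPM in adjacent tissue, and Cd68, a macrophage gene, rose by 2.26 ± 0.52. The part of these cells in the Esam difference was not tested. Pecam1 (CD31), which joins endothelial cells and also marks platelets and some leukocytes, had 53.5, 31.3, 89.5 and 52.5 CPM in tumors and 50.6, 30.4, 41.9 and 53.1 CPM in adjacent tissue. Apart from mouse 1323, each pair differed by little, and Pecam1 was not called (log2 0.37 ± 0.27, adjusted p = 0.283 by edgeR).

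The secreted factors also split. Egfl7, a matrix-bound protein made by endothelial cells that guides vessel tube formation and hosts a microRNA in an intron, had 30.6, 26.5, 44.4 and 32.3 CPM in tumors and 22.4, 13.6, 17.3 and 13.9 CPM in adjacent tissue. No adjacent library reached the lowest tumor (log2 0.99 ± 0.23, adjusted p = 0.00379 by edgeR). Egfl7 shares bases with Agpat2 on the opposite strand, which moved the other way, at 102 CPM in tumors and 386 CPM in adjacent tissue (log2 -1.93 ± 0.29). Vwf (von Willebrand factor, which tethers platelets at a damaged vessel wall) had 62.7, 41.7, 109.9 and 43.8 CPM in tumors and 52.3, 45.0, 59.0 and 75.7 CPM in adjacent tissue. Tumor 1323 lay above every adjacent library, tumors 1322 and 1349 lay below every one, and Vwf was not called (log2 0.15 ± 0.34, adjusted p = 0.736 by edgeR).

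None of the 3 receptor tyrosine kinases was called. Kdr (VEGFR2, the main receptor for VEGF-A on blood vessels) had 25.8, 12.7, 28.1 and 21.1 CPM in tumors and 44.0, 26.7, 17.0 and 28.7 CPM in adjacent tissue (log2 -0.41 ± 0.31, adjusted p = 0.301 by edgeR). In 3 of 4 mice it was the adjacent tissue that held more. Tie1, a partner receptor of the angiopoietin system, had 22.5, 13.97, 39.4 and 24.0 CPM in tumors and 19.9, 20.6, 13.4 and 26.9 CPM in adjacent tissue (log2 0.31 ± 0.29, adjusted p = 0.402 by edgeR). Tek (Tie2, the angiopoietin receptor) had 49.3, 7.06, 9.56 and 12.4 CPM in tumors and 9.06, 6.76, 6.56 and 8.50 CPM in adjacent tissue. Tumor 1319 stood alone, with the other tumors little above adjacent tissue. The log2 fold change of Tek was 1.34 ± 0.55 (adjusted p = 0.0596 by edgeR), and 0.33 ± 0.34 (adjusted p = 0.457) without tumor 1319. It was called with DESeq2 (adjusted p = 0.0245), and by edgeR without tumor 1322 (adjusted p = 0.0246) or tumor 1323 (adjusted p = 0.0376).

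Plvap forms the diaphragms that span the windows of intestinal capillaries. It had 74.2, 51.9, 111 and 76.1 CPM in tumors and 103, 68.5, 62.5 and 89.6 CPM in adjacent tissue. The groups overlapped, and in 3 of 4 mice the adjacent tissue held more (log2 -0.05 ± 0.24, adjusted p = 0.887 by edgeR). Its sign turned to just above 0 with DESeq2's size factors or test and without the low-count filter.

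The start regions of 1 gene that rose, Egfl7, and of the 3 receptors that were not called are shown because ETS factors, a family active in endothelial cells, read a short core found in many endothelial promoters. RefSeq promoters (GRCm38.p6) of 300 bases, covering 250 before and 50 after each start, were read for 4 members. The other members, Ecscr among them, were left out of this reading. Capitals mark the ETS-type letters AGGAAG or CGGAAG on either strand, where CTTCCT and CTTCCG are their reverse. Among 32851 promoters of the same length, 46.5% held at least 1 such match. Egfl7 has 3 listed starts, with 3, 2 and 0 matches, and the one with 2 is shown, at chr2:26583615-26583914 on the plus strand. Tie1 lies at chr4:118489800-118490099 on the minus strand with 3 matches. Tek lies at chr4:94739039-94739338 on the plus strand and Kdr at chr5:75978406-75978705 on the minus strand, both with 0 matches. A match or its lack describes these letters in this window and says nothing of binding.
Egfl7: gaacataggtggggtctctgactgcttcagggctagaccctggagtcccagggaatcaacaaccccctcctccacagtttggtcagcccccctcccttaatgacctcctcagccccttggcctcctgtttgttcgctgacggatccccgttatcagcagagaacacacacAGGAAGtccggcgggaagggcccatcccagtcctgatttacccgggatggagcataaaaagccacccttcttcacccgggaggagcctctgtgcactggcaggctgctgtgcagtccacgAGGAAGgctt
Tie1: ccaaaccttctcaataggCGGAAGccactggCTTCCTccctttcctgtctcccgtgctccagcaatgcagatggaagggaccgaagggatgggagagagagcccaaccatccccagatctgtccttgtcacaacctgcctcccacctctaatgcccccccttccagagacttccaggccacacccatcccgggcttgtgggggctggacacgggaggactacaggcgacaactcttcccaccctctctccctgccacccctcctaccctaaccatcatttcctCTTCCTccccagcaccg
Tek: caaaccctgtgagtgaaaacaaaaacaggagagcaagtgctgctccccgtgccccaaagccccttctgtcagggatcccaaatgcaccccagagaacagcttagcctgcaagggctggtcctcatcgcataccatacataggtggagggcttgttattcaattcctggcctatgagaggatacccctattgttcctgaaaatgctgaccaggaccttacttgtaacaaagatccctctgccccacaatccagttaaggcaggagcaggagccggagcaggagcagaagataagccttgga
Kdr: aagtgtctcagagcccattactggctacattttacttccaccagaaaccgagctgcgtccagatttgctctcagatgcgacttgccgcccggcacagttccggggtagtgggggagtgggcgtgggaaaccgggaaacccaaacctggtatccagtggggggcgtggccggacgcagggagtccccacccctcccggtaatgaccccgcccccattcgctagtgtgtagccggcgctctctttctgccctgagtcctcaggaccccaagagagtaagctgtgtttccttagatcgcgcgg

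**Figure D2:**
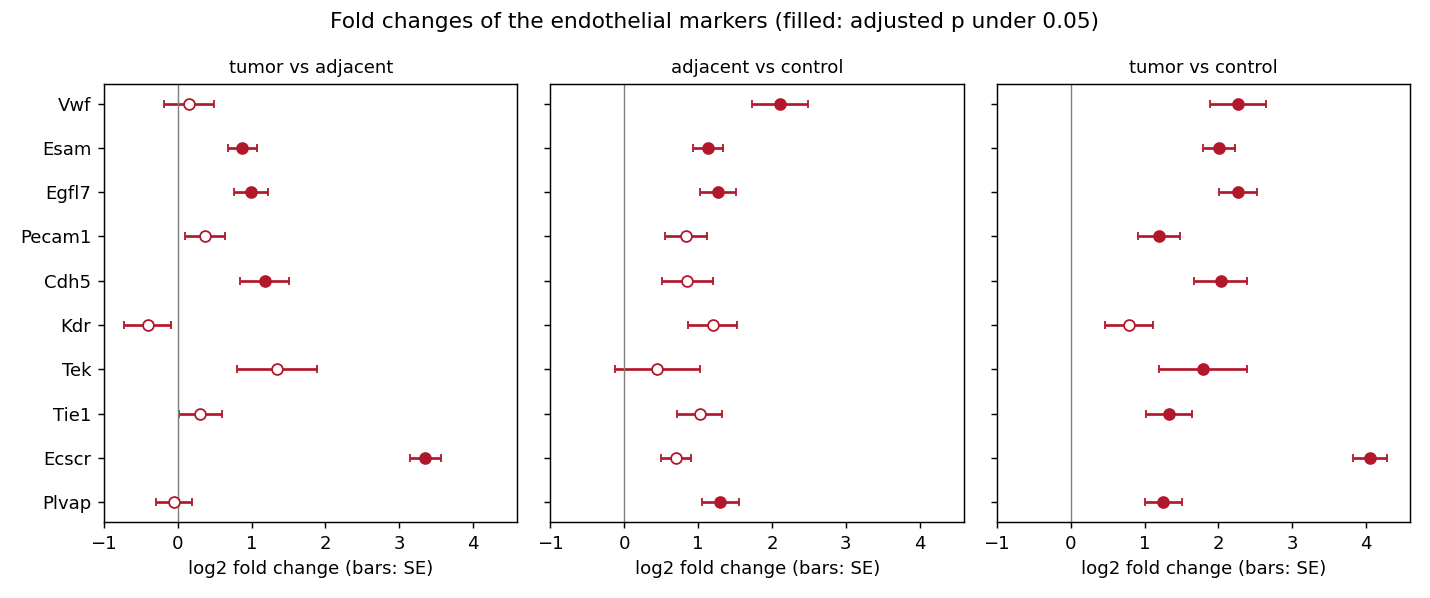
Log2 fold change with SE (bars) of each endothelial marker in tumor vs adjacent, adjacent vs control and tumor vs control, all from 1 fit of 12 libraries; filled points have an adjusted p under 0.05. Ecscr is apart in both tumor comparisons, at 3.35 and 4.05, and all 10 points of adjacent vs control lie right of 0.

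The same mouse gave both a tumor and an adjacent piece, so the difference can be read mouse by mouse. Ecscr, Cdh5, Egfl7, Esam and Tek were higher in the tumor in 4 of 4 mice. Pecam1 was higher in 3, Vwf and Tie1 in 2, and Kdr and Plvap in 1. Mouse 1323 gave the largest excess for 8 of the 10 genes, with 2.22 for Cdh5, 1.55 for Tie1 and 1.09 for Pecam1 on the log2 scale, and it is the only mouse in which Kdr and Plvap were higher in the tumor. Tumor 1323 also had the most fibroblast marker RNA, 10858 CPM summed over 8 genes, against 1349 to 3301 CPM in the other tumors, and its part in these differences was not tested. With mouse as a block in the edgeR fit, the 4 called markers were again called, Cdh5 with the largest adjusted p of the 4 (0.0469). The adjusted p with the block was 0.00311 for Ecscr, 0.0118 for Esam and 0.0173 for Egfl7, each larger than in the main fit.

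**Figure D3:**
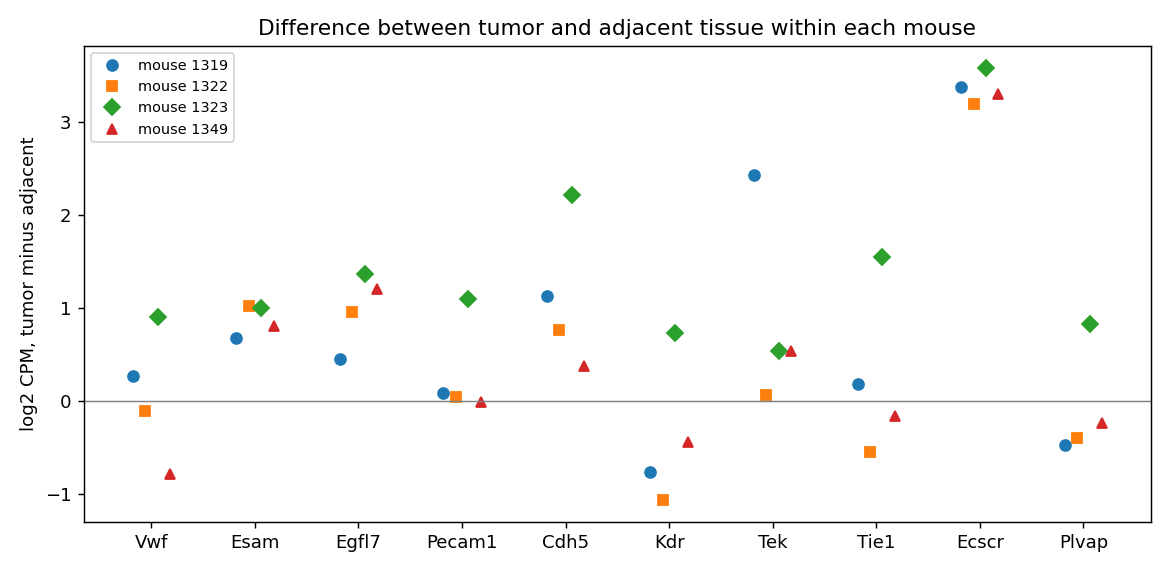
Difference in log2 CPM, tumor minus adjacent tissue, for each endothelial marker in each of 4 mice (symbols). Ecscr lies between 3.19 and 3.59 in all 4 mice, while Kdr and Plvap lie above 0 in mouse 1323 alone.

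Adjacent tissue was set against control tissue to ask whether unaffected gut of tumor-bearing H2B/p53dIEC mice differs from gut of H2B/p53flox/flox mice. Genotype and the bearing of a tumor cannot be told apart in this design. Of the 10 markers, 4 rose (Vwf, Plvap, Egfl7 and Esam) and 0 fell, where 1.07% of all genes were called and 0.792% were called higher. All 10 log2 fold changes were above 0, with a median of 1.08 against 0.04 over all genes. In 8 of the 10, every adjacent library lay above every control, which held for 8.22% of all genes. This comparison shares the adjacent libraries with the one before and the control libraries with the next, so the comparisons are not independent.

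Vwf showed the widest gap, with 52.3, 45.0, 59.0 and 75.7 CPM in adjacent tissue against 16.9, 9.92, 2.68 and 16.6 CPM in controls 1315, 1316, 1320 and 1321. The 2.68 CPM of control 1320 is 1 read. The log2 fold change was 2.11 ± 0.37 (adjusted p = 0.0282 by edgeR). Plvap had 103, 68.5, 62.5 and 89.6 CPM in adjacent tissue against 34.7, 24.1, 32.1 and 40.1 CPM in controls (log2 1.30 ± 0.25, adjusted p = 0.0325). The lowest adjacent library exceeded the highest control in both genes. Egfl7 averaged 16.8 ± 4.07 CPM in adjacent tissue and 7.67 ± 2.24 CPM in controls (log2 1.27 ± 0.25, adjusted p = 0.0335), and Esam 18.02 ± 2.44 CPM in adjacent tissue and 7.17 ± 3.07 CPM in controls (log2 1.13 ± 0.21, adjusted p = 0.0285), both by edgeR with n = 4 each.

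The receptors and the remaining junction genes had positive values that were not called. Kdr averaged 29.1 ± 11.1 CPM in adjacent tissue and 12.4 ± 3.48 CPM in controls (log2 1.20 ± 0.33, adjusted p = 0.0925), and Tie1 20.2 ± 5.54 CPM in adjacent tissue and 9.62 ± 1.43 CPM in controls (log2 1.02 ± 0.31, adjusted p = 0.113). Pecam1 (log2 0.83 ± 0.28, adjusted p = 0.159) and Cdh5 (log2 0.85 ± 0.35, adjusted p = 0.232) were likewise apart in every library without passing the test. Tie1 (adjusted p = 0.0447) and Pecam1 (adjusted p = 0.0468) were called by edgeR in a fit of these 2 groups alone. Ecscr, the gene with the widest tumor gap, had a log2 fold change of 0.70 ± 0.21 here (adjusted p = 0.109), and Tek 0.45 ± 0.58 (adjusted p = 0.732). For Ecscr the overlap was 1 library, control 1320, at 8.03 CPM on 3 reads; the other controls, at 4.91 to 5.32 CPM, lay below the lowest adjacent library, at 5.61 CPM. Ecscr was called with DESeq2 (adjusted p = 0.0459) and, by edgeR, without adjacent 1323 (log2 0.85 ± 0.17, adjusted p = 0.0476).

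The count of calls in adjacent tissue depended on single libraries. Without adjacent 1349, or without any of controls 1315, 1316 and 1321, 0 of the 10 passed edgeR's test. Calls over all genes fell away in the same fits, to 84 without adjacent 1349, 32 without control 1315, 2 without control 1316 and 0 without control 1321, against 189 with every library. Without adjacent 1319 or control 1320, 1 of the 10 passed, with 89 and 53 calls over all genes. Without tumor 1349, 2 passed, with 114 calls over all genes. DESeq2 called 7 of the 10, and 5.26% of all genes. A fit of the 2 groups alone, without the tumors, called 6 of the 10, and 441 of 16391 genes. The log2 fold change of Vwf stayed between 1.95 and 2.28 and that of Plvap between 1.15 and 1.43 over the libraries left out.

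Among blood genes, the red blood cell list was also higher in adjacent tissue than in controls. Hemoglobin and other red blood cell genes, summed over 5, came to 713, 95.3, 118 and 179 CPM in adjacent tissue and to 6.91 to 12.1 CPM in controls, with all 5 called higher and a median log2 fold change of 4.99. Of the 5, 2 were called without control 1315 and 0 without control 1316 or 1321. Tumors had 239, 198, 358 and 274 CPM, and 0 of the 5 passed edgeR's test against adjacent tissue (0 also at an unadjusted p under 0.05, and 0 in DESeq2). That count rested on adjacent 1319, without which 4 of the 5 were called higher in tumors, Hba-a2 by 1.31 ± 0.27 on the log2 scale (adjusted p = 0.00261 by edgeR). Platelet and megakaryocyte genes, some of which accompany Vwf, Esam and Pecam1 in platelets, came to 82.0 to 127 CPM in adjacent tissue and 34.8 to 62.2 CPM in controls, with 0 of 6 tested genes called by edgeR (6 at an unadjusted p under 0.05, and 2 called in DESeq2) and 6 of 6 positive. Over all genes, 3080 of 17666 had an unadjusted p under 0.05 in edgeR, and DESeq2 called 5.26%. The leukocyte list ran between 156 and 1222 CPM in adjacent tissue and between 229 and 485 CPM in controls. The part of blood left in the vessels in the adjacent excess was not tested.

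**Figure D4:**
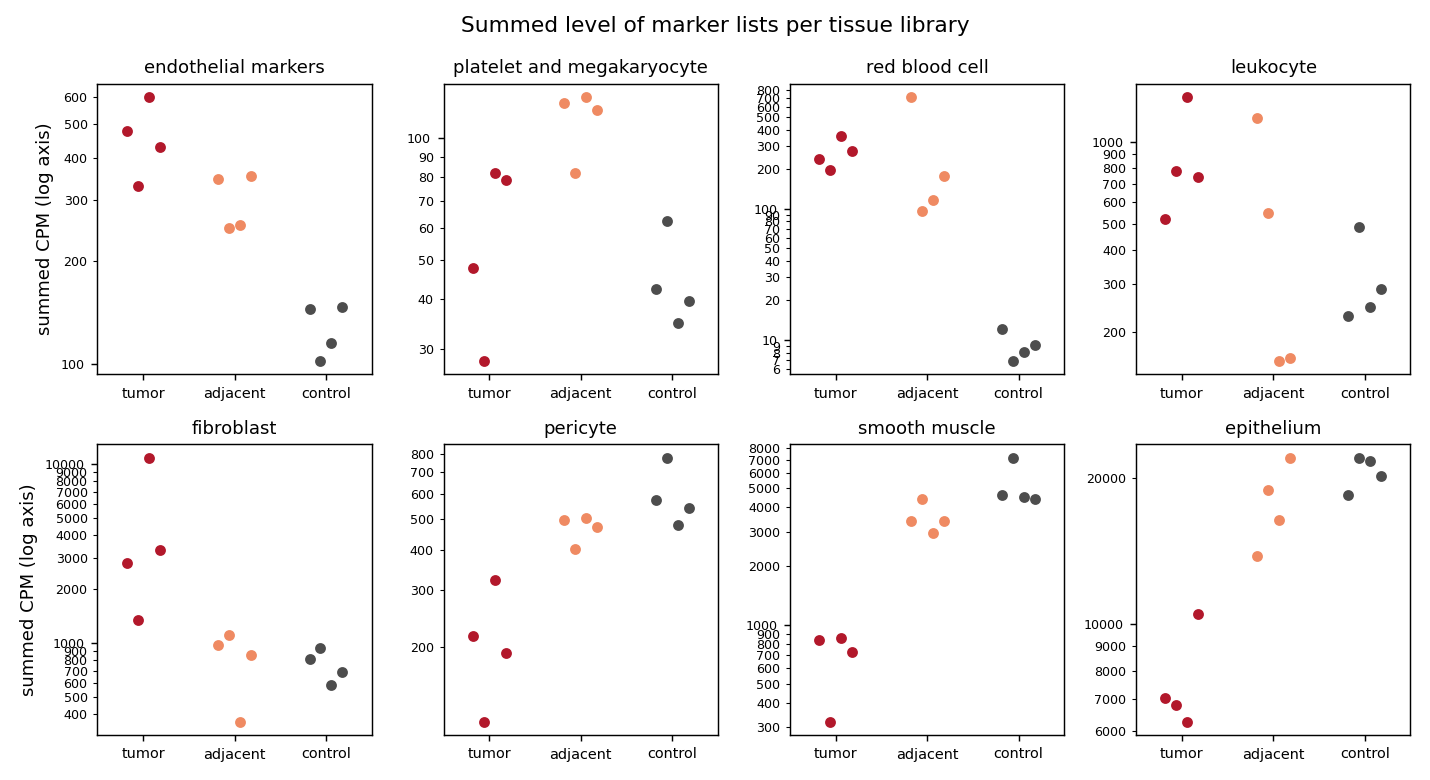
Summed CPM of marker lists (log axis, 1 point per library, ordered by mouse number) in tumor, adjacent and control tissue. Red blood cell genes are at 6.91 to 12.1 CPM in controls and at 95.3 CPM or more in the other libraries, and smooth muscle, pericyte and epithelial sums are lowest in tumors. By gene, 4 of 8 pericyte genes lay above 0 and 4 below in tumor vs adjacent (median log2 0.19).

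Against control tissue, tumors had 9 of the 10 markers higher and 0 lower, where 54.6% of all genes were called and 28.6% were called higher. In 8 of the 10 every tumor lay above every control, as did 27.5% of all genes. Kdr was the one not called, at 21.9 ± 6.81 CPM in tumors and 12.4 ± 3.48 CPM in controls (log2 0.79 ± 0.33, adjusted p = 0.0581 by edgeR), and DESeq2 called all 10 markers and 55.6% of all genes. Ecscr was 16.6-fold higher (log2 4.05 ± 0.23, adjusted p = 1.09e-06). Egfl7 (log2 2.27 ± 0.26), Vwf (2.26 ± 0.37), Cdh5 (2.03 ± 0.36) and Esam (2.01 ± 0.21) came next, with adjusted p between 1.60e-05 and 0.000466. Tie1, Plvap and Pecam1 lay between 1.20 and 1.33. Tek was called (log2 1.79 ± 0.59, adjusted p = 0.0216) but stood at 0.77 ± 0.36 (adjusted p = 0.0917) without tumor 1319.

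Read over the 3 tissue groups, the markers fall into patterns of level. Vwf and Plvap were near the same level in tumor and adjacent tissue and lower in control. Vwf averaged 64.5 ± 31.7 CPM in tumors, 58.0 ± 13.1 CPM in adjacent tissue and 11.5 ± 6.72 CPM in controls. Plvap averaged 78.3 ± 24.4 CPM in tumors, 80.9 ± 18.9 CPM in adjacent tissue and 32.7 ± 6.67 CPM in controls. Esam and Egfl7 stepped down at both borders, with Esam at 33.0 ± 2.92 CPM in tumors, 18.02 ± 2.44 CPM in adjacent tissue and 7.17 ± 3.07 CPM in controls. Ecscr was far higher in tumors than in both other groups, whose libraries overlapped through control 1320 alone. Set against the mean of the other 9 markers in the same library, Ecscr stood 1.32 ± 0.64 log2 units above in tumors, at -1.60 ± 0.38 in adjacent tissue and at -0.93 ± 0.58 in controls. Kdr stood at -0.94 ± 0.14 in tumors and at 0.32 ± 0.43 in adjacent tissue on the same scale.

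Within groups, the markers moved together from library to library to differing degrees. After each group's mean was removed, each marker was correlated over 12 libraries with the mean of all 10 markers. Each marker is part of that mean, which raises its r. The correlation was 0.924 for Cdh5, 0.902 for Plvap, 0.878 for Kdr, 0.861 for Pecam1 and 0.797 for Tie1. It was 0.650 for Vwf, 0.486 for Tek, 0.432 for Esam, 0.374 for Egfl7 and -0.176 for Ecscr. Without control 1320 it was 0.799 for Vwf, 0.584 for Tek, 0.633 for Esam, 0.656 for Egfl7 and -0.0253 for Ecscr. The closest pairs were Pecam1 with Cdh5 (r = 0.940) and Kdr with Plvap (r = 0.905). The lowest pair was Vwf with Ecscr (r = -0.680, and -0.410 without control 1320). Esam with Egfl7 had r = -0.422, and 0.482 without control 1320. Ecscr, by this measure, did not follow the rest within groups. These values share libraries and scaling and are descriptions.

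Among 11326 genes of moderate level, those most like the mean of the markers in the same centred data were Mtor (r = 0.956), Cyyr1 (0.944), Adam9 (0.934), Ptprb (0.921), Nrg1 (0.908), Lnpep, Emcn, Cd300lg, Usp32 and Ednra (0.899 to 0.893). Cyyr1, Ptprb (the endothelial phosphatase VE-PTP) and Emcn (endomucin) are on the list of other endothelial genes. Of these 10, 3 were again among the first 10 without control 1320, and 1 when group means were left in.

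A wider list of 31 endothelial genes had 30 tested. In tumors against adjacent tissue, 10 were higher and 0 lower, with a median log2 fold change of 0.53, where 23.0% of all genes were called higher. Sox17, a transcription factor of arterial endothelium that intestinal tumors can also express, had 24.6 CPM in tumors and 2.98 CPM in adjacent tissue (log2 3.04 ± 0.64, adjusted p = 0.00235 by edgeR). Icam1 (log2 1.73 ± 0.33), which captures leukocytes on activated endothelium, Cd93 (1.72 ± 0.44), Notch4 (1.25 ± 0.22), Gja5 (1.61 ± 0.40) and Sox7 (1.93 ± 0.45) rose too. In adjacent against control tissue all 30 were above 0, with a median of 1.09, and 1 was called by edgeR and 12 by DESeq2. Over all genes, edgeR called 1.07% there and DESeq2 5.26%. In tumors against control tissue 24 of 30 were higher and 0 lower, where 28.6% of all genes were called higher.

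Genes of VEGF and angiopoietin ligands and receptors went in different directions. Of the 12 on this list, 4 were higher in tumors than in adjacent tissue and 2 lower (6 lower without tumor 1323). Among all genes, 23.0% were called higher and 46.9% in either direction. Angpt2, which opposes Tek signalling in many settings and is made by endothelial cells, averaged 19.3 CPM in tumors and 5.40 CPM in adjacent tissue (log2 1.84 ± 0.32, adjusted p = 0.000681 by edgeR). Pgf rose by 2.76 ± 0.51, Angpt1 by 1.81 ± 0.56 and Vegfb by 1.19 ± 0.36. Angpt1 was no longer called with mouse as a block (log2 1.48 ± 0.71, adjusted p = 0.151) or without tumor 1323 (log2 1.13 ± 0.48, adjusted p = 0.0731), nor Vegfb without tumor 1322 (log2 0.93 ± 0.35, adjusted p = 0.0513), all by edgeR. Vegfa, the chief ligand of Kdr, was lower in tumors, at 98.6 CPM against 172 CPM in adjacent tissue (log2 -0.80 ± 0.14, adjusted p = 0.000758 by edgeR). Angptl4, a lipase inhibitor induced by fasting and low oxygen, was lower, at 29.9 CPM in tumors against 257 CPM in adjacent tissue (log2 -3.10 ± 0.37).

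Of 14 genes linked to sprouting tip cells, 9 were higher in tumors than in adjacent tissue and 1 lower, with a median log2 fold change of 1.69. Among all genes, 23.0% were called higher and 46.9% in either direction. Aplnr, the apelin receptor of growing vessels, had 15.0 CPM in tumors and 0.371 CPM in adjacent tissue (log2 5.30 ± 0.56), while control tissue had 3.58 CPM. Pdgfb, the endothelial signal that recruits pericytes, rose by 1.87 ± 0.26. Unc5b, a netrin receptor also found outside vessels, fell by 1.66 ± 0.28. Several of these genes are expressed by other cells, and which cells supplied the RNA was not tested.

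Lymphatic and wall-cell genes moved in both directions. Of 8 lymphatic genes, 2 were higher in tumors than in adjacent tissue and 4 lower. In this comparison 23.0% of all genes were called higher and 46.9% in either direction, so 2 of 8 higher lies near the former share. Prox1, which sets lymphatic identity and is also made by intestinal epithelial cells and tumors, had 105 CPM in tumors and 4.47 CPM in adjacent tissue, while Ccl21a (log2 -2.40 ± 0.47) and Reln (log2 -1.82 ± 0.41) fell. Of 8 pericyte genes, 2 were higher, again near the share of all genes, and 3 lower. Rgs5, a pericyte and arterial smooth muscle gene, fell to 74.8 CPM in tumors, against 301 CPM in adjacent tissue (log2 -2.01 ± 0.25). All 8 smooth muscle genes were lower in tumors, with summed levels of 320 to 860 CPM in tumors and 2947 to 4399 CPM in adjacent tissue.

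Summed epithelial genes ran between 6282 and 10463 CPM in tumors, between 13782 and 22023 CPM in adjacent tissue and between 18458 and 21957 CPM in controls. Of the fibroblast genes, 4 of 8 were higher in tumors and 1 lower, Col1a1 among the higher (log2 4.39), and 2 were higher with mouse as a block. Of 7 enteric neuron and glia genes 0 were higher and 5 lower, where 23.0% of all genes were called higher and 46.9% in either direction. The part of this shift in the marker differences was not tested.

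Crypt libraries held little endothelial RNA. The 10 genes summed to 5.85 to 9.21 CPM in H2BdIEC crypts and to 6.95 to 10.1 CPM in control crypts, and Cdh5, Kdr, Tie1 and Plvap had at most 13 reads in any library and did not pass the low-count filter. Of the 6 tested, 0 were called by edgeR, where 10% of all genes were called, and 0 by DESeq2, which called 16.6% of all genes. At an unadjusted p under 0.05 in edgeR, 4213 of 14596 genes passed, and 1 of the 6 did. That gene was Tek, with 1.57, 1.12, 1.03 and 1.30 CPM in the 4 H2BdIEC crypt libraries and 0.947, 0.576, 0.379 and 0.670 CPM in the 4 control libraries. All 4 H2BdIEC libraries were above the controls, which held for 8.54% of all genes, on 10 to 29 reads each (log2 0.96 ± 0.32, adjusted p = 0.0807 by edgeR). Vwf averaged 1.47 CPM in H2BdIEC crypts and 2.38 CPM in control crypts, and Esam 1.26 CPM in H2BdIEC crypts and 1.95 CPM in control crypts, both with overlapping groups.

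Organoids are grown from epithelium alone, and Cdh5, Kdr, Tie1 and Plvap were at or near 0 in them. Cdh5 had 0 reads in all 9 libraries and Kdr 1 read in all 9 together. Tie1 had at most 2 reads, Plvap and Tek at most 6, and Pecam1 at most 18 in a library. Red blood cell genes were at 0 CPM in 8 of the 9 libraries. Only Vwf, Esam and Egfl7 passed the filter, and these are the members that can be compared in organoids.

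Egfl7 was near 10 CPM throughout, with 9.53, 10.6 and 9.51 CPM in H2B/p53dIEC organoids, 10.7, 10.6 and 9.36 CPM in H2BdIEC organoids and 7.57, 10.6 and 10.5 CPM in controls, and was not called in any comparison. Esam had 6.03, 7.39 and 6.85 CPM in H2B/p53dIEC organoids, 3.73, 4.01 and 3.10 CPM in H2BdIEC organoids and 5.77, 9.73 and 8.34 CPM in controls. The H2BdIEC cultures lay below both other groups, and 10.6% of all genes were lower in every H2BdIEC than in every control culture. Against controls, Esam fell in H2BdIEC organoids (log2 -1.16 ± 0.21, adjusted p = 0.0087 by edgeR), the 1 call among 3 tested markers where 4.06% of all genes were called. Against H2BdIEC organoids, Esam rose in H2B/p53dIEC organoids (log2 0.92 ± 0.22, adjusted p = 0.00788), 1 of 2 calls among 3 where 29.3% of all genes were called. Against controls it was not called in H2B/p53dIEC organoids (log2 -0.24 ± 0.18, adjusted p = 0.33).

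Vwf had 1.23, 1.72 and 0.937 CPM in H2B/p53dIEC organoids, 0.355, 0.606 and 0.791 CPM in H2BdIEC organoids and 0.540, 0.671 and 0.476 CPM in controls. Each H2B/p53dIEC culture was above the rest, on at most 28 reads. A like separation held for 23.0% of all genes against H2BdIEC organoids and for 27.2% against controls. It was called against H2BdIEC organoids (log2 1.02 ± 0.35, adjusted p = 0.0465 by edgeR) and against controls (log2 1.19 ± 0.32, adjusted p = 0.0135), the second of these the 1 call among 3 where 33.3% of all genes were called. The first call was lost in DESeq2 (adjusted p = 0.107) and on leaving out any of 7 libraries, and the second without H2B/p53dIEC culture 2 (adjusted p = 0.0849). Ecscr, below the filter, had 0.492, 0.554 and 0.432 CPM in H2B/p53dIEC organoids and at most 0.198 CPM in H2BdIEC and 0.240 CPM in control organoids, and was not tested.

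**Figure D5:**
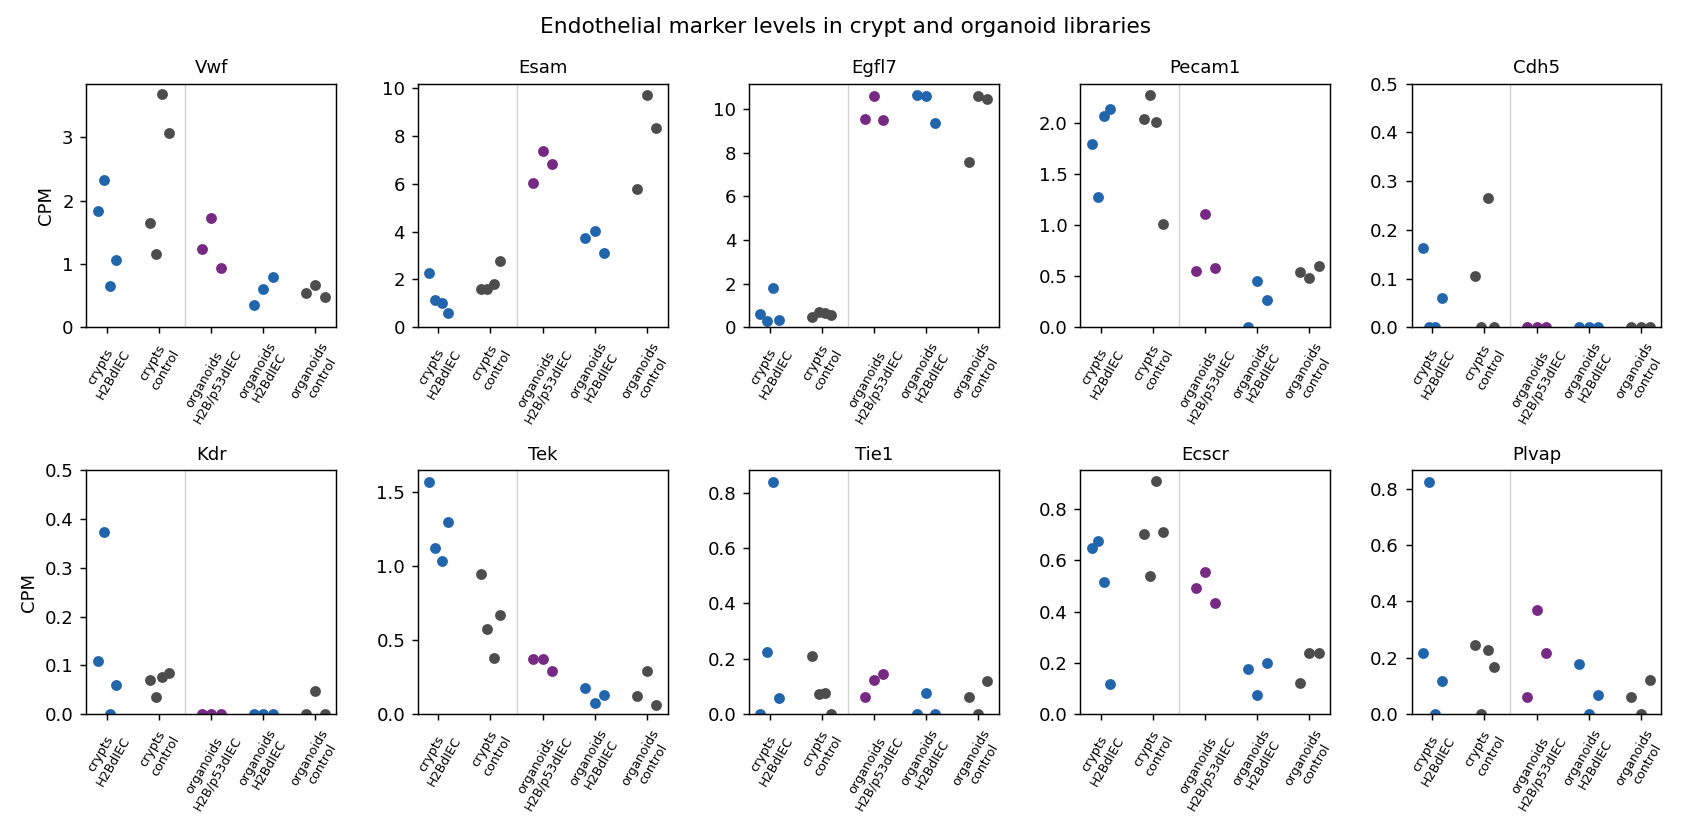
Level of each endothelial marker (CPM, linear axis from 0, 1 point per library) in crypts of H2BdIEC and control mice and in H2B/p53dIEC, H2BdIEC and control organoids; the sets were normalized separately. Egfl7 is near 10 CPM in organoids and at most 1.81 CPM in crypts, and Cdh5 is at 0 in all 9 organoid libraries.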

How the data were processed

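The files deposited by the authors hold raw counts of reads for each Ensembl gene, with no normalization. Per the labels, 500 ng of total RNA went into strand-specific TruSeq libraries. Per the submitters' processing notes, cutadapt (1.5, 1.9), Trimmomatic 0.36, TopHat2 2.0.14 and HTSeq were used on GRCm38; roles, settings and the strand option are not given in the sources used here. The counter's summary lines, present in crypt files (49.9% to 59.5% of their total), were dropped. Symbols came from GENCODE M21, which matched 49326 of 49585 tissue identifiers. The members and the 12 further gene lists were chosen with earlier results of these data known.

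Groups followed genotype, tissue and titles. The 3 sets were modelled separately in edgeR 4.0.16 (R 4.3.3), using filterByExpr, TMM and a robust quasi-likelihood F test over group means. An SE is the log2 fold change divided by the square root of F, and log2 CPM has a prior count of 2. All members are named; of each further list, the 4 genes with the smallest p in tumor vs adjacent (6 for other endothelial and VEGF genes) come under the naming rule, and Col1a1 is among them. Genes like the members were ranked by Pearson r among genes with a mean log2 CPM of at least 2. Tumor and adjacent pieces with 1 number come from 1 mouse, which gives the pairing; same-mouse deviations correlated between -0.16 and 0.16. No label ties organoid cultures to separate mice, so p there reflects the spread between these samples, which may be technical. Library number and, in control 1320, depth limit precision. Alternatives were DESeq2 1.42.0 (its test, or its size factors alone), upper-quartile scaling, a filter at 1 CPM or none, a non-robust fit, a fit of the 2 groups alone, replicate blocks, and leaving out single libraries with the spread pooled over the rest. The pipeline was tested on simulated data, and 0 pairs of libraries were identical. Plots used matplotlib 3.10.9 under Python 3.11.15.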

Additional observations from a re-analysis of the deposited data

Results flagged for a closer look

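Over 74 groups of 4 libraries tested for a lone extreme value, 4 stood out, where chance gives about 1 in 20. Tek had 49.3 CPM in tumor 1319, with 7.06 to 12.4 CPM in the other tumors. Ecscr had 8.03 CPM in control 1320, with 4.91 to 5.32 CPM in the other controls, and this value is 3 reads of the shallowest library. Summed red blood cell genes had 713 CPM in adjacent 1319, with 95.3 to 179 CPM in the other adjacent libraries. Summed smooth muscle genes had 7165 CPM in control 1316, with 4416 to 4589 CPM in the other controls.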

How the results depend on the processing

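The count of called markers in tumor vs adjacent was 4 to 5 over all alternatives, and 4 with mouse as a replicate block; in tumor vs control it was 8 to 10, and in crypts 0 throughout. In adjacent vs control it was 4, moved to 7 with the DESeq2 test and was 6 with only the 2 groups. Over the libraries left out it was 0 to 4. In organoids, H2BdIEC vs control gave 1 throughout, also with the letter as a replicate block, where letters share only a name (same-letter correlations -0.18 to 0.10). H2B/p53dIEC vs H2BdIEC gave 2, with 1 without the low-count filter, at 1 CPM, with DESeq2 and with only the 2 groups, and 1 to 2 over the libraries left out. H2B/p53dIEC vs control gave 1, with 0 at 1 CPM and 0 to 1 over the libraries left out. The cause of these changes was not tested.

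Values close to 0 changed sign. In tumor vs adjacent, Plvap had log2 0.00 with DESeq2 size factors (0.00216) and with the DESeq2 test (0.00219), and 0.0398 without the low-count filter. Hbb-bt had 0.0439 without the filter and 0.46 with mouse as a replicate block, Hbb-bs 0.0522 and 0.37, and Alas2 0.13 with the block. In crypts Pecam1 had log2 0.00036 with DESeq2 size factors and 0.00048 with the DESeq2 test. Over the libraries left out in tumor vs adjacent, Vwf ran from -0.23 to 0.32, Plvap from -0.26 to 0.11, Alas2 from -0.58 to 0.78, Hbb-bt from -0.33 to 1.04, Hba-a2 from -0.25 to 1.31 and Hbb-bs from -0.33 to 0.94. In crypts Egfl7 ran from -0.51 to 0.58 and Pecam1 from -0.20 to 0.12. In organoids, H2BdIEC vs control, Vwf ran from -0.11 to 0.33 and Egfl7 from -0.0604 to 0.16; Egfl7 ran from -0.11 to 0.0031 in H2B/p53dIEC vs H2BdIEC and from -0.10 to 0.13 in H2B/p53dIEC vs control. No scaling moved the median of all genes by over 0.1. Depth limits control 1320 and the rare markers in crypts and organoids most. The mouse block changed no other call among the members.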
